A study of Rattus norvegicus with 8 samples.

Results

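The genes described here are those of microglia, the resident macrophages of the brain, in the striatum of rats that self-administered methamphetamine (METH) or saline. They were chosen by symbol from the table of read counts per gene, as 44 genes that mark microglia or carry out their known functions, without the purinergic receptors. Of the 44 genes, 42 were in the table of 17337 genes, and Cd33 and Dock2 were not analysed here. All 42 passed the filter on low counts, which 12014 genes of the table passed, so that none of the 42 was lost for low expression.

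The rats were male Sprague-Dawley rats, labelled as wild type, and 4 of them took METH while 4 took saline. METH rats received 0.05 mg/kg for each lever press that was rewarded, in sessions of 2 h per day for 16 days, and control rats pressed for saline under the same procedure, jugular catheter, catheter flushing with heparin and gentamycin, and earlier food training included. Of the rats, 24 self-administered METH and 8 saline, and 4 of each with a stable response over the last 3 days were chosen for plasma sampling. That the sequenced striata came from the same rats is not stated in the sources used here. The age of the rats and the interval between the last session and dissection were not given in the sources used here, and messenger RNA of the whole striatal sample was sequenced after poly(A) capture, so that all cell types were measured together.

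Microglia sense neurons and debris through surface receptors, and they take up cells and synapses through phagocytosis. Their survival depends on the receptor Csf1r, and neurons signal to them through the chemokine Cx3cl1, which is read by Cx3cr1. Complement proteins of the C1q complex tag material for uptake, and Toll-like receptors detect microbial and damage signals. Trem2 and activating Fc receptors, of which Fcgr2b is not one, signal through adaptors with an activation motif known as ITAM. In brain tissue most of the genes studied here are expressed mainly by microglia and by the related macrophages of vessels and meninges.

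The total read count per rat lay between 18135939 and 21211920, and the reads on the 42 genes between 16266 and 23799. Levels are given as counts scaled to libraries of equal size (CPM) with TMM factors for library composition, at which 3 counts correspond to between 0.142 and 0.169 CPM. No pair of rats of a group was alike within sampling noise, with a chi-square of 10.1 to 27.6 for each degree of freedom. METH replicate 3 stood apart in the whole series, at 39.5 on the first principal component (26.4% of the variance) against 0.26 to 5.29 in the other METH rats. Without it, among the values described below, Cx3cr1 and P2rx4 were not called, all genes called lower went from 8 to 4, and the log2 fold change of Tlr7 went from -0.66 to -0.43, that of Cd14 from 0.48 to 0.28, that of Cd68 from 0.24 to 0.099, that of Cd4 from 0.11 to 0.014 and that of C1qc from 0.11 to 0.17. Counting error, gene length and the spread between rats limit what can be read from a level, and CPM values are compared between rats for the same gene, not between genes.

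The label of the gene group was checked against defining markers. All 7 microglial markers, among them P2ry12, Tmem119, Cx3cr1, Sall1, Csf1r and Aif1, were read in each rat, at no fewer than 224 counts. Of these 7, 4 (Tmem119, Cx3cr1, Csf1r and Aif1) belong to the genes described, so that the check is only partly independent of them. The summed level of the 7 markers, given below, also includes these 4 genes. Of 6 markers of border and perivascular macrophages, Mrc1 and Lyve1 were read between 26 and 135 times, Cd163, Pf4 and F13a1 between 5 and 39 times, and Ms4a7 at most 1 time. Of 6 T cell markers, Cd3e and Lck were read between 22 and 50 times, while Cd3d, Cd3g, Cd8a and Cd2 had at most 11 counts and 0 in at least 1 rat. The 3 B cell markers had at most 5 counts. Of 6 neutrophil markers, S100a8 had 7 to 32 counts and S100a9 0 to 51, and the other 4 had at most 10. Summed levels in saline and METH rats were 374 to 435 and 320 to 388 CPM for the microglial markers, 5.82 to 11.2 and 6.47 to 14.7 CPM for the macrophage markers, 3.02 to 4.90 and 2.85 to 4.97 CPM for the T cell markers, and 2.17 to 3.45 and 0.734 to 3.28 CPM for the neutrophil markers. Their part in the values below was not tested.

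In METH rats 2 of the 42 microglial genes (4.76%) fell and none rose. A gene was called where the Benjamini-Hochberg FDR of the edgeR quasi-likelihood test was under 0.05 and its mean log2 CPM over 1, and SE below is the standard error of the log2 fold change. The genes that fell were Mpeg1, which encodes a pore-forming protein of the phagosome, and Cx3cr1, the receptor for the neuronal chemokine Cx3cl1. Over all genes tested, 0.0666% were called lower and 0.449% were called higher by the same rule. At an unadjusted p below 0.05, 9 of the 42 genes (21.4%) were lower and 1 (2.38%) was higher, beside 4.88% lower and 6.26% higher over all genes tested. Over the 42 genes the log2 fold changes ran from -0.79 to 0.48 around a median of -0.22, while the median over all genes tested was -0.0055. Negative values were found for 30 of the 42 genes (71.4%), against 51.4% of all genes tested. The genes were chosen with earlier results of these data known, so these shares are a description and no independent support. The libraries cannot tell fewer microglia from less of a given RNA per microglial cell. This holds for each level, fold change and sum of microglial genes below.

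Mpeg1 was at 79.6, 84.0, 75.5 and 94.4 CPM in the saline rats and at 41.3, 57.9, 49.4 and 44.02 CPM in the METH rats. The 4 METH rats all lay under the lowest saline rat. The raw counts were 1451, 1681, 1563 and 1998 in saline rats and 843, 1216, 875 and 835 in METH rats. Its log2 fold change was -0.79 (SE 0.11, edgeR FDR 0.00343), or 0.577 times the saline level, with a 95% interval of the log2 fold change from -1.03 to -0.56. It was called in each of the 8 fits that left out 1 rat, with an edgeR FDR from 0.00131 to 0.0186. Other tests, scalings and filters also called both genes, except for Cx3cr1 with the rat number as a block. The share of all genes called lower in these fits was 0.325% with the likelihood ratio test, 0.0749% with limma-voom and with the robust fit, 0.0666% with RLE scaling, 0.0749% with upper quartile scaling, 0.0916% with total counts only, 0.0902% for every gene with at least 1 count, 0.0804% with a minimum count of 30 and 0.0166% with the block. It was 0.0666% with no threshold on log2 CPM, 0.15% at an FDR below 0.1 and 0.0583% with a fold change of at least 1.5, and both genes passed these rules too.

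Cx3cr1 was at 26.1, 31.3, 30.5 and 36.9 CPM in the saline rats and at 20.7, 21.8, 14.0 and 18.8 CPM in the METH rats. The groups did not overlap here either, and METH replicate 3 was the lowest. The log2 fold change of Cx3cr1 was -0.73 (SE 0.14, edgeR FDR 0.0408), or 0.604 times the saline level, with a 95% interval from -1.04 to -0.42. The call was less firm than that of Mpeg1, since it was lost in 6 of the 8 fits without 1 rat (FDR up to 0.144). These were the fits without saline replicate 2 (0.114), saline replicate 3 (0.0676), saline replicate 4 (0.144), METH replicate 1 (0.0569), METH replicate 3 (0.076) and METH replicate 4 (0.106), while the log2 fold change stayed between -0.81 and -0.61. Cx3cl1, the ligand of Cx3cr1, had a log2 fold change of 0.24 (SE 0.07, edgeR FDR 0.237) from 1086 ± 78.3 CPM to 1281 ± 67.5 CPM (SD, n = 4 each), and its METH rats were all above the saline rats.

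**Figure D1:**
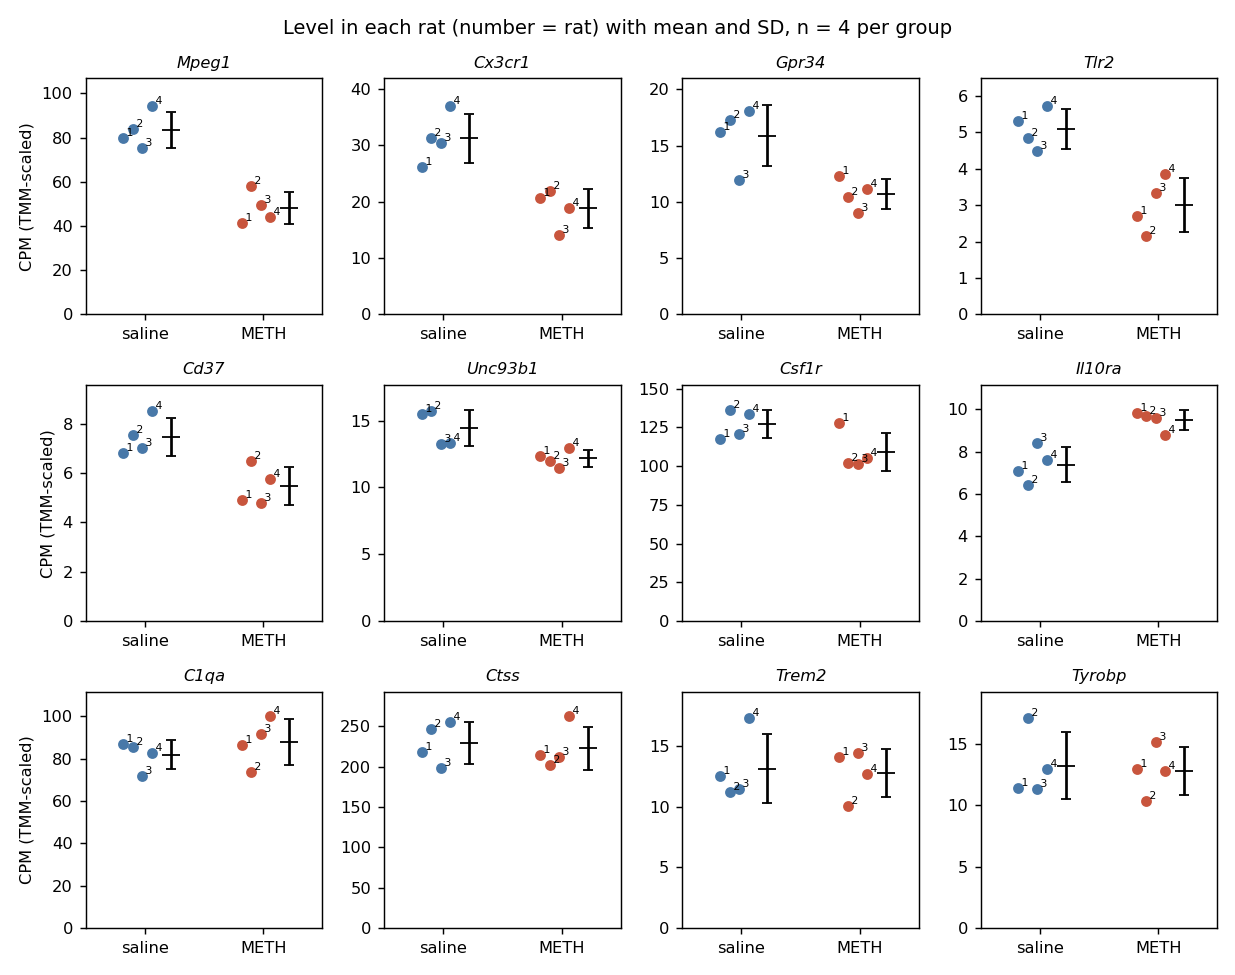
Level of 12 microglial genes in each rat, in TMM-scaled CPM from 0 on each vertical axis. Points are rats with their replicate number, and bars give the mean and SD of 4 rats. The METH rats of Mpeg1 (41.3 to 57.9 CPM) and Cx3cr1 (14.0 to 21.8 CPM) lie below all saline rats, while C1qa, Ctss, Trem2 and Tyrobp overlap between the groups.

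The other genes of microglial identity were not called. Gpr34, a lysophospholipid receptor, was at 16.2, 17.3, 11.98 and 18.1 CPM in saline rats and at 12.3, 10.4, 9.04 and 11.1 CPM in METH rats. Saline replicate 3 lay within the METH range, so that the groups overlapped. The log2 fold change was -0.57 (SE 0.15, edgeR FDR 0.175), and of the fits run only the Wald test of DESeq2 called it (adjusted p 0.0446), where 0.416% of all genes tested were called lower. By gene spans of the GRCr8 annotation, 6 of the 42 members overlap a protein-coding gene (Gpr34, Ly86, Unc93b1, Lcp1, Dock8 and Cd37). Counting genes of any kind, 10 of the 42 overlap another gene. Among these is Cx3cr1, which was called and overlaps a long non-coding RNA gene, so its reads may include some of that gene. The gene span of Gpr34 overlaps that of Cask, and Cask itself had a log2 fold change of -0.38 (edgeR FDR 0.431), so that reads of these genes may not have been kept apart. Tmem119, a membrane protein used to tell microglia from other macrophages, was at 48.0, 58.4, 45.2 and 48.6 CPM in saline rats and at 46.9, 36.5, 46.4 and 41.9 CPM in METH rats. METH replicates 1 and 3 lay above the lowest saline rat, and the 95% interval of the log2 fold change ran from -0.45 to 0.0070. Selplg, the ligand of P-selectin, had a log2 fold change of -0.20, and the secreted protein gene Olfml3 one of 0.04. Siglec5, a receptor for sialic acid, varied widely within both groups, from 0.821 to 10.2 CPM in saline rats and from 1.37 to 6.48 CPM in METH rats, and its 95% interval reached from -1.81 to 0.60.

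Among growth factor and cytokine receptors, Csf1r, on which microglial survival depends, was at 117.7, 136.3, 120.9 and 133.5 CPM in saline rats and at 127.6, 101.9, 101.4 and 105.5 CPM in METH rats. METH replicate 1 lay within the saline range and the other METH rats lay below it. The log2 fold change was -0.22 (SE 0.09, edgeR FDR 0.398). Its ligands Csf1 and Il34 had log2 fold changes of -0.14 and 0.04. Il10ra, the receptor chain for the anti-inflammatory cytokine interleukin-10, was at 7.08, 6.45, 8.40 and 7.61 CPM in saline rats and at 9.84, 9.71, 9.60 and 8.80 CPM in METH rats. All 4 METH rats were above the saline rats, and Il10ra was the only member with that order, which 3.75% of all genes tested showed. With a log2 fold change of 0.36 (SE 0.15, edgeR FDR 0.398) it was not called. Csf3r, the receptor for granulocyte colony-stimulating factor, had a log2 fold change of -0.32 and a 95% interval that included 0.

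Spi1 encodes PU.1, the transcription factor that sets up the macrophage lineage, and Irf8 encodes a partner of PU.1. Neither was called. Spi1 was at 11.2, 12.8, 10.2 and 11.4 CPM in saline rats and at 10.6, 8.52, 8.19 and 11.3 CPM in METH rats. Its groups overlapped, with METH replicate 4 near the middle of the saline range. Irf8 was at 10.3, 13.6, 9.76 and 13.6 CPM in saline rats and at 10.2, 8.33, 9.60 and 9.17 CPM in METH rats. METH replicate 1 lay above the lowest saline rat. The log2 fold changes were -0.24 (SE 0.15, edgeR FDR 0.559) for Spi1 and -0.34 (SE 0.16, edgeR FDR 0.436) for Irf8.

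The promoters of the members were searched for the core letters that PU.1 recognises, GAGGAA, on both strands, in the 250 bases before the start of each gene. Promoter sequences of RefSeq (build GRCr8) were found for 30 of the 42 genes by symbol. The letters were present in 18 of these 30 genes (60%), against 23.3% of the 9094 tested genes with a promoter and 23.3% of all 33469 promoter windows. The longer form GAGGAAGT, which contains the shorter, was present in 5 of the 30 (16.7%) against 2.23% of tested genes, namely Ctss, Cd37, Cyth4, Cd53 and Fcgr3a. A motif of interferon regulatory factors was also searched, and 3 of the 30 (10%) held it against 2.65% of tested genes. These are matches of letters and not measured binding sites. Neither Mpeg1 nor Cx3cr1 held GAGGAA in this window. PU.1 may also bind other letters or outside the window, and its part in any of these values was not tested. The median log2 fold change was -0.22 for the 18 genes with the letters and -0.37 for the 12 genes without. The bases next to the start are shown for the genes that fell, and stretches of 80 bases for 6 other members with the letters, to set both kinds side by side. Each is printed 5′ to 3′ along the gene, and capitals mark GAGGAA or its reverse complement TTCCTC. Positions in GRCr8 are chr1:218876774-218876893, plus strand, for Mpeg1 and chr8:128677067-128677186, minus strand, for Cx3cr1, both ending at the base before the start.
Mpeg1: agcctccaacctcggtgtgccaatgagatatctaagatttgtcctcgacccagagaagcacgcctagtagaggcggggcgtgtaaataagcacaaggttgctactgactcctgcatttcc
Cx3cr1: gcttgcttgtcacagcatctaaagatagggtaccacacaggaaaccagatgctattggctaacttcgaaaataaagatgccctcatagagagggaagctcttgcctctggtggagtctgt

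For Ctss the stretch is chr2:185775316-185775395, plus strand, for Gpr34 chrX:11785837-11785916, minus strand, for Trem2 chr9:20151780-20151859, minus strand, for C1qb chr5:154407875-154407954, minus strand, for Cd37 chr1:104860819-104860898, minus strand, and for Cyth4 chr7:112032678-112032757, plus strand. The capitals of Ctss, Gpr34 and Trem2 end 10, 7 and 24 bases before the start, those of C1qb, Cd37 and Cyth4 end 85, 72 and 62 bases before it.
Ctss: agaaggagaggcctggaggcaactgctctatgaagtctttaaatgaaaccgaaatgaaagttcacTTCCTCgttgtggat
Gpr34: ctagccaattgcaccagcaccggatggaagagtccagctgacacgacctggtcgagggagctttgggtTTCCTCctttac
Trem2: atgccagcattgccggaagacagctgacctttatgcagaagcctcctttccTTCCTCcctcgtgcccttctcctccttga
C1qb: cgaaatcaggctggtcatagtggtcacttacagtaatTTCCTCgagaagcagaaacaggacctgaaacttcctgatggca
Cd37: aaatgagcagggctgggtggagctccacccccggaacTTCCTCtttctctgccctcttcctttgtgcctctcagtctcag
Cyth4: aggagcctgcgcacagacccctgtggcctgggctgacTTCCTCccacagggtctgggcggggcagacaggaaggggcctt

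All 8 printed stretches lie upstream of the start. The 6 genes with capitals differed in their response, from a log2 fold change of -0.57 for Gpr34 to 0.09 for C1qb, and none of them was called.

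The 5 complement genes had log2 fold changes on both sides of 0, and none was called. C1qa, C1qb and C1qc encode the chains of the C1q complex. C1qa was at 86.7, 85.6, 71.8 and 82.7 CPM in saline rats and at 86.2, 73.7, 91.7 and 99.9 CPM in METH rats. The groups overlapped, and the lowest rat was in the saline group. The log2 fold changes of C1qa, C1qb and C1qc were 0.11, 0.09 and 0.11, and their 95% intervals ran from -0.11 to 0.32, from -0.14 to 0.32 and from -0.11 to 0.32. These intervals do not reach the interval of Mpeg1 or that of Cx3cr1. C1qb was at 44.3, 44.6, 36.1 and 42.4 CPM in saline rats and at 44.98, 37.1, 47.3 and 49.1 CPM in METH rats. C1qc was at 40.5, 37.1, 36.8 and 39.2 CPM in saline rats and at 44.8, 37.8, 36.03 and 46.97 CPM in METH rats. The groups overlapped for both, and METH replicate 3 was the lowest of the 8 rats for C1qc. The ratio of C1qa to C1qb was between 1.92 and 2.04 in all 8 rats.

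C3, the central complement protein, was at 3.90, 8.75, 6.76 and 9.17 CPM in saline rats and at 3.77, 5.62, 4.91 and 3.74 CPM in METH rats. Saline replicate 1 was as low as the METH rats. The log2 fold change of C3 was -0.66 (SE 0.26, edgeR FDR 0.377). Itgam, a chain of the complement receptor CR3, was at 10.1, 5.999, 7.39 and 8.74 CPM in saline rats and at 10.2, 10.6, 2.60 and 7.70 CPM in METH rats. METH replicate 3 was low for this gene, and without it the log2 fold change was 0.24 in place of -0.05. Of 14 other complement genes tested from a list, 2 were lower at an unadjusted p below 0.05, among them Itgb2, which encodes the partner chain of Itgam, and none was called.

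None of the 6 genes of Fc receptor and ITAM signalling had an unadjusted p below 0.05. Trem2, a lipid receptor of microglia, was at 12.5, 11.2, 11.4 and 17.3 CPM in saline rats and at 14.0, 10.04, 14.4 and 12.7 CPM in METH rats. Tyrobp, the ITAM adaptor through which Trem2 signals, was at 11.4, 17.1, 11.3 and 12.99 CPM in saline rats and at 12.97, 10.4, 15.1 and 12.8 CPM in METH rats. The groups overlapped for both genes, although METH replicate 2 was the lowest of the 8 rats in both, with log2 fold changes of -0.04 (95% interval -0.40 to 0.33) and -0.05 (-0.40 to 0.31). Fcer1g, another ITAM adaptor, had a log2 fold change of 0.16, and Inpp5d, a phosphatase that restrains this signalling, one of -0.16. Fcgr2b and Fcgr3a, receptors for antibodies, were low and imprecise. Fcgr2b had 22 to 86 counts in saline rats and 30, 43, 0 and 49 counts in METH rats, where 0 counts allow up to 0.169 CPM for counting error alone, and its reads may be shared with those of related Fc receptor genes. Of 15 genes of kinases, other enzymes and adaptors that act downstream of ITAM adaptors and Csf1r, 2 were lower (the kinase genes Lyn and Fgr) at an unadjusted p below 0.05. At that level 1 was higher (Dok3, an adaptor), and none was called.

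None of the Toll-like receptor genes was called, and 1 of 6 was lower at an unadjusted p below 0.05. Tlr2, a receptor for bacterial lipoproteins, was at 5.32, 4.85, 4.49 and 5.72 CPM in saline rats and at 2.69, 2.14, 3.33 and 3.85 CPM in METH rats. The groups did not overlap. The log2 fold change of Tlr2 was -0.76 (SE 0.23, edgeR FDR 0.237), a size close to that of Mpeg1 without a call. Tlr7, a receptor for single-stranded RNA, was at 2.91, 4.25, 4.01 and 4.63 CPM in saline rats and at 2.40, 3.47, 1.13 and 2.95 CPM in METH rats, with overlap and a log2 fold change of -0.66 (edgeR FDR 0.458). Tlr4, the receptor for lipopolysaccharide, had 9, 25, 29 and 9 counts in saline rats and 18, 10, 5 and 12 in METH rats. The groups overlapped, and the 95% interval of its log2 fold change (-1.78 to 0.50) includes both directions. Its partner Cd14 had 15, 14, 5 and 19 counts in saline rats and 16, 20, 23 and 13 in METH rats, with overlap and a log2 fold change of 0.48 (95% interval -0.53 to 1.49). Unc93b1, which carries nucleic acid-sensing Toll-like receptors to the endosome, was at 15.5, 15.7, 13.3 and 13.3 CPM in saline rats and at 12.33, 12, 11.47 and 12.97 CPM in METH rats. All METH rats were lower by a narrow margin, with a log2 fold change of -0.25 (SE 0.12, edgeR FDR 0.466). Its gene span overlaps that of Aldh3b1, which had a log2 fold change of 0.05. Ly86 had a log2 fold change of 0.31 with a 95% interval from -0.44 to 1.07. Of 12 other genes of the Toll pathway tested, 1 had an unadjusted p below 0.05 and none was called. That gene was Cd180, a relative of the Toll-like receptors and the binding partner of Ly86, with a log2 fold change of -0.57 (edgeR FDR 0.401).

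Of the phagosome and lysosome genes, Mpeg1 fell as described and the others did not pass the test. Ctss, a lysosomal protease that microglia express strongly, was at 218.2, 246.3, 198.5 and 255.2 CPM in saline rats and at 214.3, 202.0, 211.3 and 262.5 CPM in METH rats. The ranges were nearly the same, with a 95% interval of the log2 fold change from -0.26 to 0.17. Cd68, a glycoprotein of lysosomes that is used as a marker of phagocytic microglia, had only 27, 30, 19 and 21 counts in saline rats and 37, 21, 33 and 21 in METH rats, with overlap and a log2 fold change of 0.24 (95% interval -0.56 to 1.04). Laptm5, a lysosomal membrane protein of leukocytes, was at 40.3 ± 8.20 and 34.8 ± 4.21 CPM in saline and METH rats (SD, n = 4 each).

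All 6 tested genes of actin and adhesion signalling had negative log2 fold changes, from -0.42 for Apbb1ip to -0.17 for Lcp1, and none was called. Cyth4, an exchange factor for Arf GTPases, was at 15.3, 17.7, 17.0 and 20.0 CPM in saline rats and at 15.3, 14.7, 13.6 and 12.6 CPM in METH rats. METH replicate 1 and saline replicate 1 were almost equal and the remaining rats were separated, with a log2 fold change of -0.32 (SE 0.12, edgeR FDR 0.373). Aif1, which encodes the actin-bundling protein Iba1 used to stain microglia, was at 21.2, 23.2, 16.8 and 15.6 CPM in saline rats and at 17.1, 15.8, 17.6 and 11.8 CPM in METH rats. The groups overlapped (log2 fold change -0.30, 95% interval -0.64 to 0.04). Among the leukocyte surface proteins, Cd37, a tetraspanin, was at 6.81, 7.55, 7.004 and 8.51 CPM in saline rats and at 4.89, 6.47, 4.80 and 5.75 CPM in METH rats. Its groups did not overlap, and the log2 fold change was -0.45 (SE 0.18, edgeR FDR 0.377). The span of Cd37 overlaps those of Tead2 (log2 fold change 0.15) and Slc6a16. Ptprc, the phosphatase CD45 of all leukocytes, was at 3.07, 4.50, 3.82 and 2.50 CPM in saline rats and at 1.32, 2.76, 3.16 and 2.53 CPM in METH rats, with overlap and a log2 fold change of -0.51 (95% interval -1.17 to 0.15). Cd4, a co-receptor of T cells that rat macrophages also carry, was at 10.2, 15.6, 14.6 and 10.9 CPM in saline rats and at 14.1, 14.04, 16.4 and 10.7 CPM in METH rats. The groups overlapped, with a log2 fold change of 0.11, and the tetraspanin gene Cd53 had one of 0.05.

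**Figure D2:**
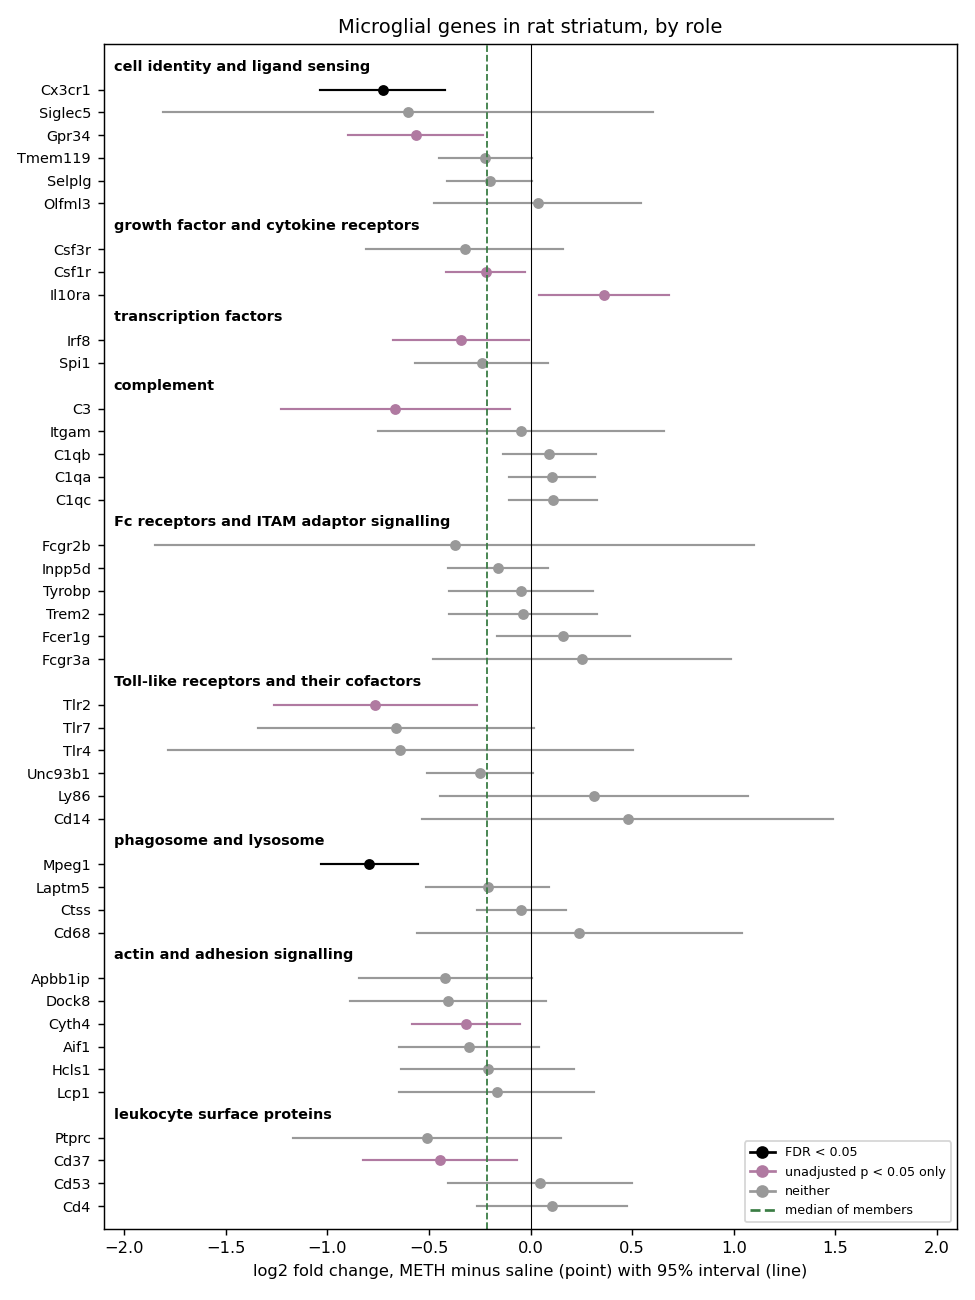
Log2 fold change (METH minus saline, horizontal axis) of the 42 microglial genes, grouped by role, with 95% intervals from the quasi-likelihood fit. Mpeg1 and Cx3cr1 (black) pass an FDR of 0.05, the genes in purple have only an unadjusted p below 0.05, and the dashed line is the median of -0.22.

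Without overlap between the groups, 5 of the 42 genes (11.9%) were lower in METH rats and 1 (2.38%) was higher. The lower genes were Cx3cr1, Mpeg1, Tlr2, Unc93b1 and Cd37. Over all genes tested, 2.65% were lower and 3.75% higher without overlap. With 1 rat left out separation is easier for any gene. Without saline replicate 3 the lower genes without overlap numbered 11, beside 4.05% of all genes tested in that fit, without METH replicate 1 they numbered 10, beside 5.89%, and without saline replicate 1 they numbered 8, beside 4.79%. The number lower at an unadjusted p below 0.05 was 13 without saline replicate 3, beside 3.91% of all genes, and 6 without saline replicate 2 (4.57%) or saline replicate 4 (4%).

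The rats differed in how much microglial RNA was read, also within the groups. Summed over the 42 genes, the level was 1013, 1144, 939.9 and 1125 CPM in the saline rats and 962.5, 878.7, 918.7 and 999.5 CPM in the METH rats. Saline replicate 3 lay inside the range of the METH rats, so that the sums overlapped (1055 ± 96.2 CPM and 939.8 ± 52.5 CPM, SD, n = 4 each). Saline replicate 2 was the highest of the 8 rats for 14 genes and saline replicate 4 for 13, while the lowest rat was METH replicate 3 for 13 genes, saline replicate 3 for 9 and METH replicate 2 for 8. The mean sum was 0.89 times the saline level over all members. By role, it was 0.795 for identity and ligand sensing, 0.802 for Toll-like receptors and cofactors, 0.817 for actin and adhesion signalling and 0.818 for transcription factors, but 0.977 for Fc receptors and ITAM signalling and 1.05 for complement. The sums of METH and saline rats did not overlap for identity genes (128.6 to 137.1 CPM against 145.0 to 186.4 CPM) and for Toll-like receptor genes (20.3 to 23.5 CPM against 25.02 to 28.9 CPM). A sum is led by its most abundant genes, and no test was run on it.

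**Figure D3:**
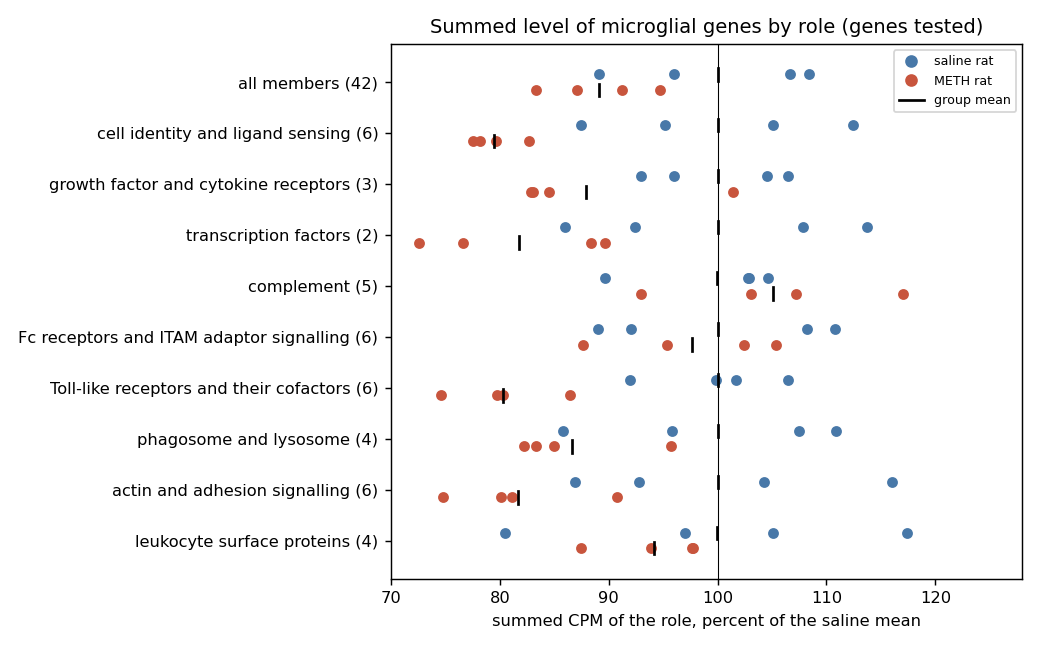
Summed CPM of the tested genes of each role in each rat, as a percentage of the saline mean on the horizontal axis, with the number of genes in brackets and black bars for group means. The METH rats lie below all saline rats for the identity genes and the Toll-like receptor genes and overlap with them for all other roles and for all members together.

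Ratios between microglial genes of the same rat do not depend on library scaling, and they show whether the genes moved by the same factor. Their absolute size carries no meaning, since gene lengths were not used, and they were chosen after the values had been seen and not tested. Mpeg1 per C1qa was 0.919, 0.981, 1.05 and 1.14 in saline rats and 0.478, 0.785, 0.539 and 0.441 in METH rats. Mpeg1 per Ctss was between 0.341 and 0.38 in saline rats and between 0.168 and 0.287 in METH rats. Both ratios were lower in every METH rat. Cx3cr1 per Csf1r was between 0.222 and 0.276 in saline rats and between 0.138 and 0.214 in METH rats. Cx3cr1 per Mpeg1 overlapped between the groups (0.374 ± 0.0331 and 0.397 ± 0.0912, SD, n = 4 each).

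**Figure D4:**
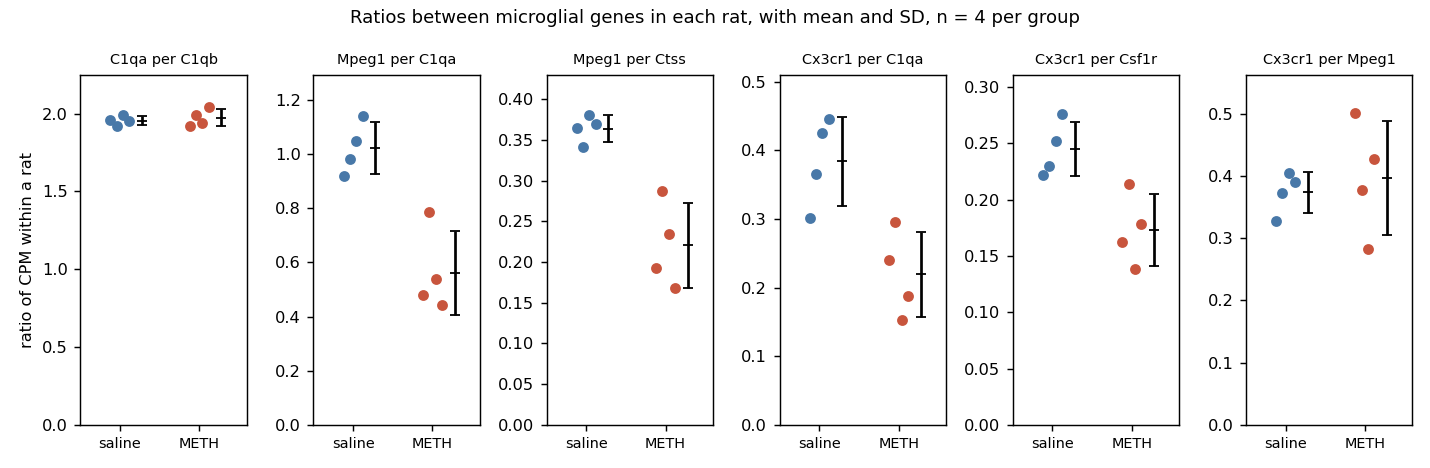
Ratios of CPM between microglial genes within each rat, with the axis starting at 0, points for rats and bars for the mean and SD of 4 rats. The ratio of C1qa to C1qb stays between 1.92 and 2.04, while Mpeg1 and Cx3cr1 per C1qa, Mpeg1 per Ctss and Cx3cr1 per Csf1r are lower in all METH rats, and Cx3cr1 per Mpeg1 overlaps.

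The spread within groups set which members could be judged. The coefficient of variation among saline rats had a median of 18.8% over the 42 genes, from 4.1% for Inpp5d to 70.2% for Fcgr2b, and among METH rats a median of 15.7%, from 4.92% for Il10ra to 73% for Fcgr2b. Genes with few reads had wide intervals. The lowest mean level was that of Tlr4, at 0.73 CPM.

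Other microglial genes, taken from lists, were compared in the same fit. Of 39 tested genes enriched in microglia, 6 were lower at an unadjusted p below 0.05, none was higher and none was called, and the median log2 fold change was -0.21. Among these were Slco2b1, Itgb2, Ptpn6, Bin2 and Entpd1. Slco2b1, an organic anion transporter, had a log2 fold change of -0.44 (SE 0.11, edgeR FDR 0.121). Of the 5 purinergic receptors of microglia, P2rx4, an ATP-gated channel, was called lower (24.8 ± 3.36 CPM in saline and 15.9 ± 1.499 CPM in METH rats, SD, n = 4 each, edgeR FDR 0.0324), with a call in 3 of the 8 fits without 1 rat (lost without saline replicates 2 and 4 and METH replicates 1, 2 and 3). P2ry12, the receptor that marks resting microglia, had a log2 fold change of -0.20 (95% interval -0.62 to 0.21). Among 11 tested genes that rise in disease-associated microglia the median log2 fold change was -0.048, none was lower at an unadjusted p below 0.05 and Apoe was higher at that level (log2 fold change 0.19, edgeR FDR 0.443), which astrocytes also express. Among 6 tested inflammatory mediators Ptgs2 rose, with a log2 fold change of 1.00 (SE 0.15, edgeR FDR 0.00549), and the others had no unadjusted p below 0.05. Ptgs2 encodes an inducible cyclooxygenase that neurons also express. Among 9 tested ligands of microglial receptors the median was -0.019, with 3 higher at an unadjusted p below 0.05 (Cx3cl1, Apoe and Clu) and none lower.

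Markers of other cell types were read beside the microglial genes, and their part in the results was not tested. The median log2 fold change was -0.040 for 7 astrocyte markers and -0.090 for 7 oligodendrocyte markers, with no gene of either list at an unadjusted p below 0.05. For 5 endothelial markers it was -0.20, with all 5 negative and 2 lower at that level (Flt1 and Tek), and for 4 markers of oligodendrocyte precursors -0.18, with 2 lower (Pdgfra and Olig2). The summed endothelial level was 380 to 551 CPM in saline rats and 384 to 408 CPM in METH rats. The 8 markers of striatal projection neurons had a median of 0.15, with 2 higher at an unadjusted p below 0.05, and the summed level was 14000 to 14800 CPM in saline rats and 14800 to 18800 CPM in METH rats, highest in METH replicate 3. Without METH replicate 3 that median was 0.058, that of the astrocyte markers 0.022 and that of the oligodendrocyte markers -0.227. For 5 general neuronal markers the median was -0.11, with 1 lower at that level (Snap25, log2 fold change -0.52, edgeR FDR 0.0632). Their summed level was 2160 to 2490 CPM in saline rats and 1790 to 2150 CPM in METH rats, without overlap by a narrow margin. The mean sums were 2400 CPM in saline and 2000 CPM in METH rats, and the means of Snap25 alone 1265 and 882.6 CPM. Of the 5 markers 3 had negative log2 fold changes, while those of Rbfox3 and Tubb3 were 0.09 and 0.08. The tested markers of perivascular macrophages, T cells and neutrophils had medians of -0.22, -0.26 and -0.59 over 5, 2 and 2 genes, with S100a8 of neutrophils lower at that level. With 1 rat left out these medians ranged from -0.517 to -0.031, from -0.422 to -0.126 and from -0.832 to -0.363, and that of the endothelial markers from -0.278 to -0.122. Of 4 choroid plexus markers only Folr1 was tested (log2 fold change 0.45), and the sum of the 4 was 2.14 to 4.15 CPM in saline rats and 4.43 to 5.78 CPM in METH rats, without overlap. The 3 red blood cell markers summed to 133 to 256 CPM in saline rats and 126 to 241 CPM in METH rats, with a median log2 fold change of 0.049, which was -0.118 without METH replicate 3.

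**Figure D5:**
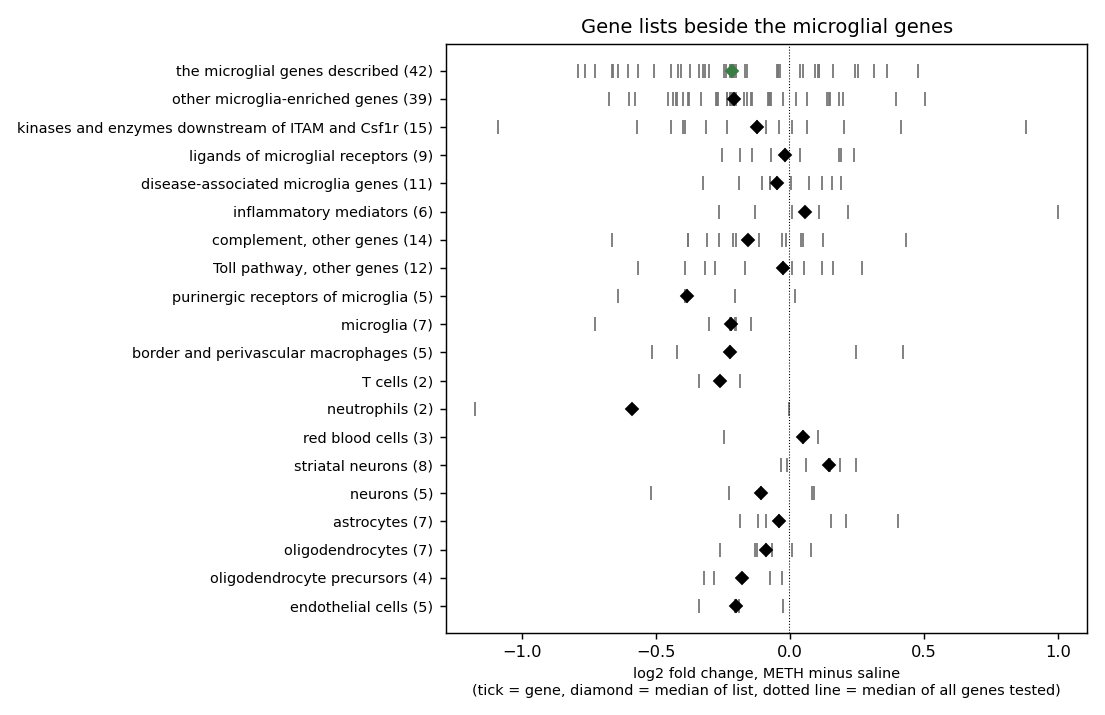
Log2 fold change (METH minus saline, horizontal axis) of each tested gene (tick) in the microglial genes and in 19 other lists, with the median of each list as a diamond and the number of genes in brackets. The microglial genes and the other microglia-enriched genes have medians of -0.22 and -0.21, astrocyte markers -0.040 and striatal neuron markers 0.15.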

How the data were processed

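Striatal mRNA of 8 rats, 4 per group, was analysed. Adapters had been removed with cutadapt 1.18 and paired reads mapped to rn6 with STAR 2.7.0e (the submitters' processing notes). The authors deposited raw read counts per gene symbol from featureCounts of Subread 1.6.4, in 1 column per rat. The library kit does not mark strand, and the annotation used and the treatment of multiply mapped reads are not given in the sources used here, so overlapping genes and near-identical copies are uncertain.

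Counts were filtered with filterByExpr (minimum count 10), scaled by TMM and compared by quasi-likelihood F-tests in R 4.3.3 with edgeR 4.0.16. FDR is the Benjamini-Hochberg value over 12014 genes. The standard error is the absolute log2 fold change divided by the square root of F, and 95% intervals use the residual plus prior degrees of freedom. Floors of 3 counts cover counting error only, and total counts per rat stand in the results. Alternatives used DESeq2 1.42.0 and limma 3.58.1 (voom), other scalings and filters, the rat number as a block and each rat left out. The scripts were tested on simulated data, where the share of unchanged genes among the calls was above the nominal FDR, which bears on calls close to the threshold such as that of Cx3cr1.

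Values in each rat are printed for members that were called, had an unadjusted p below 0.05 or did not overlap, and for a core of members per role. Members and lists were chosen with earlier results of these data known, and no independent support is drawn from that. Sequences are from RefSeq (GRCr8), which differs from rn6, and no position of a count is given. Single values of some listed genes are not reported here. The pairing of rats by number has no basis in the labels beyond the number.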

Additional observations from a re-analysis of the deposited data

Results flagged for a closer look

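For the 42 genes and their sum, the distance from the highest or lowest rat of a group to the next rat was divided by the range of the 4 rats. Of 86 groups, 4 (4.65%) were past Dixon's 95% value, about what chance gives (1 in 20). Fcgr2b was past it in both groups, with saline replicate 4 at 4.06 CPM against 1.21 to 1.40 CPM (share of the range 0.882) and METH replicate 3 at 0 CPM against 1.47 to 2.58 CPM (0.836). Csf3r was high in saline replicate 2, at 4.80 CPM against 3.67 to 3.84 CPM (0.83). Fcer1g was high in METH replicate 4, at 17.7 CPM against 14.0 to 14.6 CPM (0.834). None of these genes was called.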

How the results depend on the processing

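Mpeg1 was called under all 10 alternative fits that kept all rats (FDR 1.4e-08 to 0.0246), and Cx3cr1 under 9 of them. With the replicate block 1 member, Mpeg1, was called lower and Cx3cr1 was not (log2 fold change -0.74, FDR 0.114). At an unadjusted p below 0.05, 7 members were lower and 0 higher with the block. The block called 2 genes lower and 35 higher over all genes, and 0 lower and 0 higher among the other microglial genes. Same-numbered rats share only a number, and the correlation of their deviations was -0.201 to 0.036, with 2 of 8 rats closest to their own number. Scaled by total counts, 14 members were lower at an unadjusted p below 0.05, where the median of all genes moved from -0.0055 to -0.0411. For the block and for this scaling, the shares of all genes at that p are not given here. These numbers of members are therefore no result about the members. The likelihood ratio test called 39 genes lower and 131 higher, DESeq2 50 and 141, each with 2 other microglial genes lower (P2rx4 and Slco2b1), every gene with at least 1 count gave 13 lower, and an FDR below 0.1 gave 18 lower and 82 higher, with the same 2 members called. The cause was not tested.

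With 1 rat left out, members called lower ranged from 1 to 2 and higher from 0 to 0, members at an unadjusted p below 0.05 from 6 to 13 lower and 0 to 1 higher (beside 3.33% to 5.59% and 4.19% to 7.49%), members without overlap from 5 to 11 lower and 1 to 2 higher (beside 3.63% to 5.89% and 4.69% to 7.5% of all genes tested in these fits), all genes called from 2 to 9 lower and 35 to 66 higher, other microglial genes called lower from 0 to 2, the median of members from -0.278 to -0.171 and that of striatal neuron markers from 0.058 to 0.191. Signs turned for Itgam (-0.232 to 0.237, positive at 0.078 without saline replicate 1, 0.237 without METH replicate 3), Tyrobp (-0.133 to 0.106, positive at 0.106 without saline replicate 2, 0.045 without METH replicate 2), Trem2 (-0.105 to 0.126, positive at 0.126 without saline replicate 4, 0.064 without METH replicate 2) and Ctss (-0.134 to 0.009, positive at 0.009 without saline replicate 4), none of them called. Of the other values of named genes, 265 with all rats and 203 with 1 rat left out kept their sign and their side of the threshold. The lowest counts were those of Tlr4, Cd14, Cd68 and Fcgr3a (5 to 44 per rat), and Fcgr2b had 0 to 86.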
